A study of Arabidopsis thaliana with 24 samples.

Results

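The 9 stress-responsive WRKY factor genes WRKY33, WRKY40, WRKY18, WRKY60, WRKY70, WRKY54, WRKY53, WRKY46 and WRKY6 were followed in Arabidopsis thaliana seedlings aged 7 days, divided into root and shoot. They were taken by locus code from a table of read counts for 33602 loci. The seedlings were Col-0 wild type (WT), the mutant pxy-5 of the receptor kinase gene PXY (pxy), and a line labelled as expressing CLE41 constitutively (41-OX). All groups were 7 days old and no further treatment is named. The promoter of the CLE41 transgene and the number of lines are not given in the sources used here, and pxy-5 is a single allele. Each group of genotype and organ held 4 biological replicates by the design text. By the rule that defines the set, WT shoot replicate 2 (few reads) and the library labelled pxy root replicate 2 (a shoot profile) were left out. Thus 22 of 24 libraries entered: 4 WT, 3 pxy and 4 41-OX roots, and 3 WT, 4 pxy and 4 41-OX shoots. The set was chosen by measured values of these libraries, namely lower levels of WRKY33, WRKY40 and WRKY70 in pxy and 41-OX shoots than in WT shoots, and was filled up with related genes. Values of shoots against WT are therefore given as a description, with no test.

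WRKY proteins are plant transcription factors that bind the W-box, a short element with the core TTGACC or TTGACT, through a zinc-finger domain named after its first residues. Many of their genes are switched on within minutes to hours by pathogen patterns, wounding, cold or salicylate, and several of the proteins bind the promoters of their own family. WRKY33 carries a pair of these domains, is activated by the MAP kinases MPK3 and MPK6, and controls the synthesis of camalexin, an antimicrobial indole compound. WRKY18, WRKY40 and WRKY60 form 1 clade that represses basal defence and acts in abscisic acid responses. WRKY70, WRKY54, WRKY53 and WRKY46 belong to the family's group with a variant zinc finger and act in salicylate signalling and leaf senescence. WRKY46, WRKY54 and WRKY70 also act with BES1 in brassinosteroid-regulated growth, and BES1 lies downstream of PXY in vascular cells. WRKY6 acts in senescence and represses the phosphate exporter gene PHO1.

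The codons of the conserved 7-residue core of the domain are shown because they mark every member as a WRKY gene and show the WRKY33 pair. They were read from the coding sequence of TAIR10.1 by RefSeq, 5′ to 3′ on the coding strand, and capitals mark bases that differ from the N-terminal core of WRKY33.
WRKY33 N-terminal: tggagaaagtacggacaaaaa
WRKY33 C-terminal: tggagaaaAtacggCcaGaaa
WRKY40: tggagGaaAtaTggacaGaaa
WRKY18: tggagGaaAtacggacaaaaG
WRKY60: tggagGaaAtacggGcaaaaG
WRKY70: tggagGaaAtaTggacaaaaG
WRKY54: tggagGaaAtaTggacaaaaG
WRKY53: tggagaaaAtaTggTcaaaaa
WRKY46: tggagaaaAtaTggGcaaaaa
WRKY6: tggagaaaAtaTggCcaGaaG
WRKY70 and WRKY54 had the same 21 bases, while the other members each had a sequence of their own. WRKY33 held the core at 2 places and each other member at 1.

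The 250 bases before the annotated start were searched for the W-box as TTGACC or TTGACT on both strands, and overlapping matches were each counted. Of the 9 members 2, WRKY33 and WRKY53, held a match, with 2 each. Among 27443 protein-coding nuclear genes 28.4% held at least 1 match and 6.18% at least 2. Both promoters are shown with the matches in capitals, on the strand of the gene (AGTCAA and GGTCAA are the element read from the other strand), and WRKY70 is shown as a member without a match.
WRKY33 (chr2:16107985-16108234, + strand): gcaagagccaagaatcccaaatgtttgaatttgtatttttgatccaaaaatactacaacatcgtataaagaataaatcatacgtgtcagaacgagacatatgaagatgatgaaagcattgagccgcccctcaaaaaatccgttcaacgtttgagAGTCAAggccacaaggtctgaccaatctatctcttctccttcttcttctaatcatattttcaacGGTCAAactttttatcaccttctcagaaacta
WRKY53 (chr4:12393983-12394232, - strand): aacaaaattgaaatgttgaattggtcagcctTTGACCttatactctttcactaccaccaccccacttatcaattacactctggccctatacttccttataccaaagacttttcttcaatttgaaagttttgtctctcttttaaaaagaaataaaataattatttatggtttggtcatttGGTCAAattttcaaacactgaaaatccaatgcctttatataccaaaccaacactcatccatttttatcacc
WRKY70 (chr3:20910624-20910873, - strand): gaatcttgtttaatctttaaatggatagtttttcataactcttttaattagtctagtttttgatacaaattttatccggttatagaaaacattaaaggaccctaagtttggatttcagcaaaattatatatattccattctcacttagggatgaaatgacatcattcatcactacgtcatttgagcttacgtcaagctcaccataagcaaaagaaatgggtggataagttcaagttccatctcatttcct
In WRKY33 the matches began 96 and 32 bases before the start, and in WRKY53 they began 219 and 71 bases before it. In the wider window of 1000 bases WRKY33 held 4 matches, and 4.69% of all genes held at least as many. WRKY18 and WRKY60 held 3 there, WRKY40, WRKY53 and WRKY6 held 2, WRKY54 and WRKY46 held 1 and WRKY70 held 0. At least 1 match stood in that window in 67.3% of all genes, so these matches are a description of the sequence only.

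The 22 libraries held 7033091 to 12226066 counts. The level of a gene is given as CPM, the usual depth-normalised count, after TMM scaling over the 22 libraries. The targeted genes were read first. CLE41 stood at 26.3 to 33.3 CPM in 41-OX roots against 8.26 to 10.2 in WT roots, and at 27.8 to 29.7 CPM in 41-OX shoots against 15.5 to 21.97 in WT shoots. PXY was counted in every group, at 35.8 to 42.6 CPM in pxy shoots and 9.15 to 11.6 CPM in WT shoots. In roots it stood at 12.7 to 18.5 CPM in pxy and 14.6 to 23.6 CPM in WT. Gene-level counts therefore do not check the pxy label. Marker lists were summed as CPM without TMM scaling. A list of 9 root marker genes, among them EXPA7 and CASP1, summed to 12.9% to 18.2% of the WT root mean in 41-OX shoots. It summed to 2.72% to 4.10% in WT shoots and 2.65% to 4.61% in pxy shoots. A list of 10 photosynthetic marker genes reached 19.1% of the WT shoot mean in 41-OX root replicate 4 and at most 4.38% in every other root library. In such whole-organ samples, fewer cells that express a gene and less RNA per cell cannot be told apart.

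In WT, WRKY33 and WRKY6 were the most abundant members per transcript length in roots, and WRKY33 and WRKY40 in shoots. On the scale of CPM per kilobase of exon, WT roots (n = 4) held WRKY6 at 30.4 ± 3.25 and WRKY33 at 27.4 ± 4.23 (mean ± SD), which did not differ beyond their spread. WRKY70 at 11.3 ± 1.78 and WRKY60 at 8.46 ± 0.643 CPM per kilobase followed. WRKY40 at 5.46 ± 0.977, WRKY54 at 4.94 ± 1.01 and WRKY18 at 4.66 ± 0.374 CPM per kilobase lay within each other's spread, above WRKY53 at 3.08 ± 0.582 and WRKY46 at 1.11 ± 0.288. In WT shoots (n = 3) WRKY33 led at 46.3 ± 2.70 CPM per kilobase, followed by WRKY40 at 27.4 ± 5.30. WRKY70 at 14.7 ± 8.06 and WRKY18 at 11.2 ± 1.78 CPM per kilobase did not differ beyond their spread. WRKY60 at 6.505 ± 0.458, WRKY6 at 5.61 ± 0.828 and WRKY46 at 5.18 ± 0.861 CPM per kilobase came next, then WRKY53 at 2.87 ± 0.728 and WRKY54 at 0.244 ± 0.0897. Among all 67 WRKY-named genes the highest in WT roots were WRKY65 (65.2 ± 3.81), WRKY17 (64.0 ± 0.683) and WRKY39 (55.9 ± 1.44 CPM per kilobase). In WT shoots WRKY15 (119 ± 16.4 CPM per kilobase) and WRKY22 (57.4 ± 1.89) stood above WRKY33, the third.

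**Figure D1:**
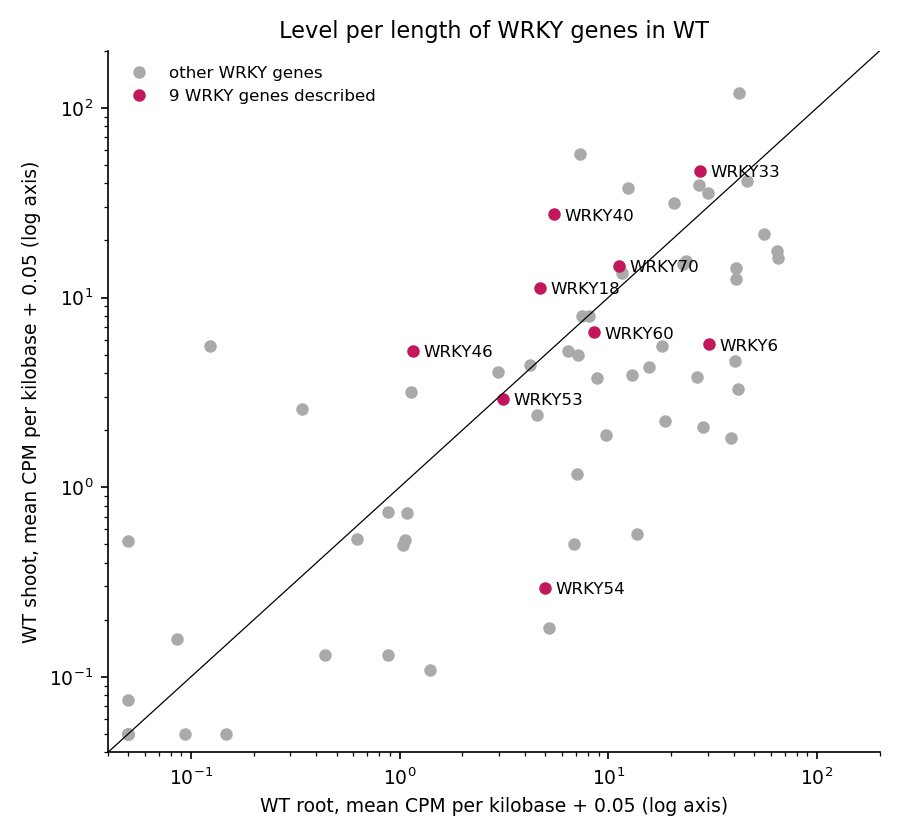
Mean CPM per kilobase of exon of 67 WRKY-named genes in WT roots (x axis, n = 4) and WT shoots (y axis, n = 3), both log axes after adding 0.05, with the line of equal level. WRKY40, WRKY18 and WRKY46 lie on the shoot side of the line, and WRKY6 and WRKY54 on the root side.

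Organ differences were tested within each genotype with edgeR's quasi-likelihood test in 1 fit of the 22 libraries, where a gene is called at a Benjamini-Hochberg adjusted p under 0.05. These tests use the shoot libraries that chose the members, so the values of WRKY33, WRKY40 and WRKY70 are given without p, as a description. WRKY53 and WRKY46, which were also lower in both mutant shoots, are treated in the same way. Nothing is read from the counts of members called. In WT 3 of 9 members were called higher in roots and 4 higher in shoots, while 80.3% of all genes were called (39.5% higher in roots, 40.7% higher in shoots), so a call alone says little. The sizes differed widely between members. WRKY54 was the most root-weighted, with a log2 difference (root minus shoot) of 4.23 (SE 0.43, edgeR adjusted p = 3.86e-09) in WT, and WRKY6 followed with 2.43 (SE 0.13, edgeR adjusted p = 2.97e-14). WRKY40, WRKY46 and WRKY18 were higher in shoots, with log2 differences of -2.34 (SE 0.16), -2.24 (SE 0.27) and -1.27 (SE 0.16). WRKY33 was also higher in WT shoots, by a log2 difference of -0.76 (SE 0.11), while WRKY60 was higher in WT roots at 0.38 (SE 0.14), a call lost without WT shoot replicate 4 (adjusted p = 0.0731). WRKY53 at 0.08 (SE 0.21) was not called in WT. WRKY70 stood at -0.41 (SE 0.26). Leaving out 1 library at a time, it ran from -0.72 (without WT shoot replicate 4) to 0.10, so its direction was not settled.

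All 9 members were called in pxy (6 higher in roots, 3 higher in shoots) and in 41-OX (5 and 4), beside 79.9% and 78.7% of all genes. By direction, 39.6% of all genes were higher in roots and 40.2% higher in shoots in pxy, and 39.1% and 39.6% in 41-OX. WRKY33 had root-minus-shoot log2 values of 0.37 (SE 0.12) in pxy and 0.67 (SE 0.12) in 41-OX, opposite in sign to WT. These signs rest on the same shoot values that chose the set, and in pxy its root and shoot libraries overlapped. The pxy value was 0.25 without pxy root replicate 3, and WRKY60 was not called there (adjusted p = 0.0865). WRKY70 had values of 1.39 (SE 0.30) in pxy and 1.24 (SE 0.30) in 41-OX. WRKY53 stood higher in roots, at 1.05 (SE 0.25) in pxy and 1.41 (SE 0.23) in 41-OX, which also rests on its low mutant shoots. WRKY40, with -1.20 (SE 0.18) in pxy and -0.48 (SE 0.17) in 41-OX, was shoot-weighted in all 3 genotypes. WRKY60 was called higher in shoots in 41-OX at -0.29 (SE 0.12, edgeR adjusted p = 0.0345), and this call was lost on leaving out any 1 of 41-OX root replicates 1, 2 and 3 or 41-OX shoot replicate 1 (highest adjusted p = 0.173). The WRKY40 call in 41-OX was lost without 41-OX root replicate 3 or 41-OX shoot replicate 4. WRKY54, WRKY6, WRKY18 and WRKY46 kept the direction they had in WT. In the fit with all 24 libraries as labelled, 5 of 9 members were called in pxy in place of 9.

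**Figure D2:**
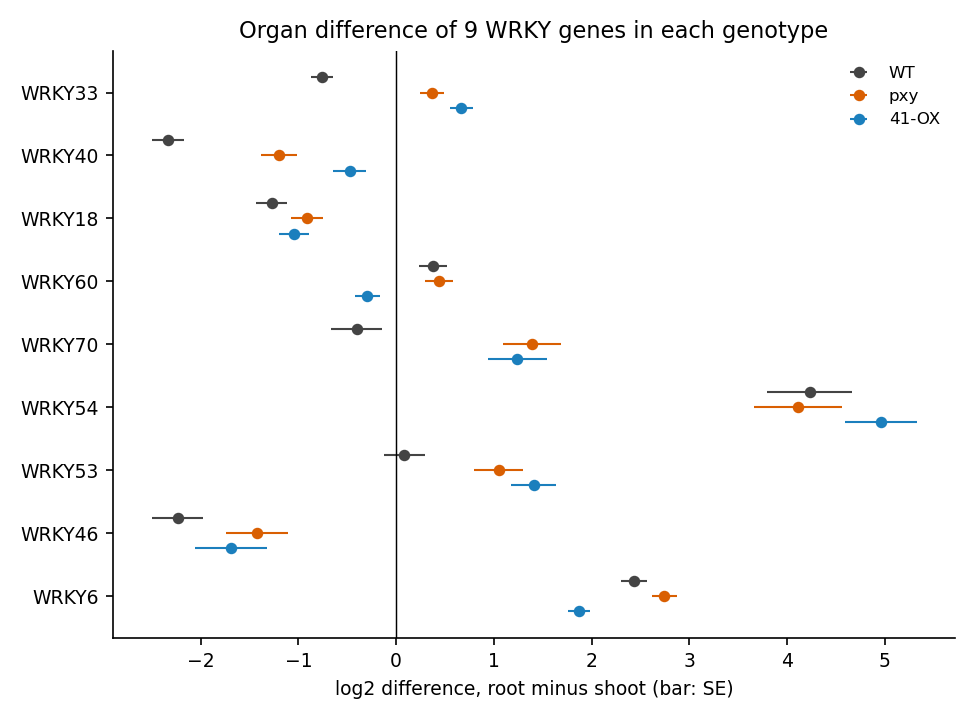
Log2 difference of each member between roots and shoots (x axis, positive is higher in roots) in WT, pxy and 41-OX, with bars of 1 SE. WRKY33 lies at -0.76 in WT and at 0.37 and 0.67 in the mutants, while WRKY54 lies above 4 in all 3 genotypes.

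Genotypes were compared within each organ, in a fit of the 11 root libraries and another of the 11 shoot libraries. The question, from the title of the series, is which genes take part in vascular proliferation, here in a receptor mutant and a line with more of the ligand gene. In roots none of 9 members was called in pxy against WT, beside 0.0394% of all genes (0.00985% higher, 0.0296% lower). In 41-OX against WT roots 1 member was called higher and 1 lower, beside 6.56% of all genes (1.92% higher, 4.65% lower). In 41-OX against pxy roots again 1 was higher and 1 lower, beside 9.77% (3.1% higher, 6.67% lower). In shoots 5 of 8 tested members were lower in pxy than in WT, and in 41-OX 5 were lower and 1 was higher. The shares of all genes called there were 1.7% in pxy (0.436% higher, 1.26% lower) and 30.9% in 41-OX (15.1% higher, 15.8% lower); these counts come from the contrasts that chose the members and nothing is read from them. Of the 5 in pxy, WRKY33 and WRKY40 kept their place without any 1 library. WRKY70 lost it without any 1 pxy shoot or the first WT shoot. WRKY53 lost it without replicate 4 of pxy, or 1 or 3 of WT, and WRKY46 without replicate 2 or 3 of pxy, or 3 of WT. Both shoot contrasts share the WT shoots. In 41-OX against pxy shoots 3 members were lower and 2 higher of 8 tested, beside 29.2% of all genes (14.7% lower, 14.5% higher). That contrast does not use WT, but it shares the mutant shoots that chose the members. The values of WRKY33, WRKY40 and WRKY70 in it are therefore given without p, as a description. So are those of WRKY53 and WRKY46, which were also lower in both mutant shoots. WRKY54 was too low in shoots to be tested there. Whether groups overlapped is given for each member below as a description only, since the share of all genes without overlap was not counted. The difference of each genotype from WT was also set between organs, as a description: it differed for 1 of 9 members in pxy and 6 of 9 (4 higher in roots, 2 lower) in 41-OX. The shares of all genes were 0.00935% in pxy (0.00467% higher and 0.00467% lower) and 16% in 41-OX (6.19% higher and 9.78% lower).

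**Figure D3:**
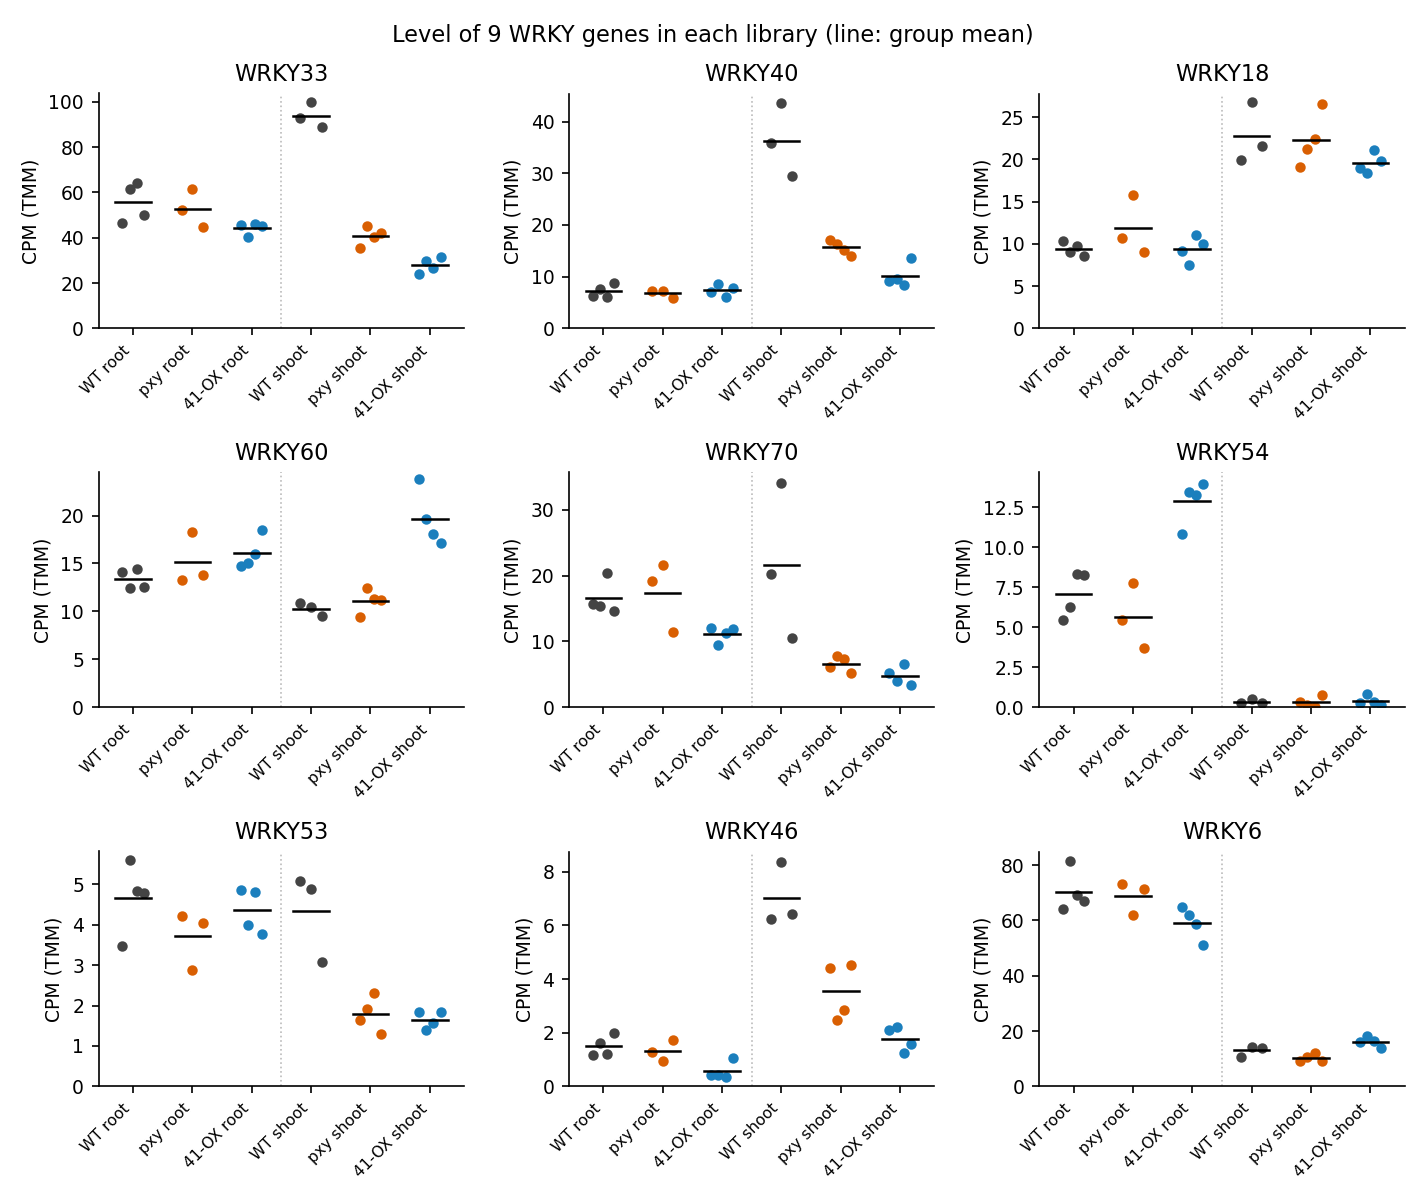
Level of each member in CPM (y axis, from 0, a scale of its own in each panel) in every library, by group (x axis), with a line at each group mean. The 3 WT shoots stand above all mutant shoots for WRKY33, WRKY40, WRKY70, WRKY53 and WRKY46, and the 4 41-OX roots stand above the other roots for WRKY54. The share of all genes set apart in this way was not counted, so nothing is read from it.

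WRKY33 (AT2G38470, TAIR10.1 chromosome 2, 16108235 to 16110766, + strand, 5 exons) encodes the camalexin regulator. In shoots it stood at 92.8, 99.8 and 89.0 CPM in the WT libraries, at 35.5, 45.1, 40.4 and 42.0 CPM in pxy and at 24.0, 29.6, 26.4 and 31.4 CPM in 41-OX. Every WT shoot was above every mutant shoot, and every pxy shoot above every 41-OX shoot. The log2 differences from WT were -1.20 (SE 0.09) in pxy and -1.74 (SE 0.09) in 41-OX. Between the mutants WRKY33 was lower in 41-OX, with a log2 difference of -0.54 (SE 0.09). In roots it stood at 46.5, 61.7, 64.0 and 50.1 CPM in WT, 52.0, 61.4 and 44.6 CPM in pxy and 45.6, 40.5, 46.0 and 44.99 CPM in 41-OX. The 41-OX roots lay below all WT roots, and the pxy roots overlapped both. Neither root difference from WT passed the test, at -0.07 (SE 0.13, edgeR adjusted p = 0.840) in pxy and -0.35 (SE 0.12, edgeR adjusted p = 0.110) in 41-OX. An antisense long noncoding RNA gene and the end of a neighbouring gene overlap WRKY33 in TAIR10.1, and whether the counting used strand is not given in the sources used here.

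WRKY40, WRKY18 and WRKY60, the clade of defence repressors, did not move together. WRKY40 (AT1G80840, chromosome 1, 30383561 to 30385499, + strand, 4 exons) stood at 35.8, 43.5 and 29.5 CPM in WT shoots, 17.1, 16.3, 15.1 and 14.1 CPM in pxy shoots and 9.14, 9.49, 8.40 and 13.6 CPM in 41-OX shoots. The 3 genotypes did not overlap in shoots. Log2 differences from WT were -1.22 (SE 0.14) in pxy and -1.83 (SE 0.15) in 41-OX, and 41-OX was lower than pxy, with -0.61 (SE 0.16). In roots the 3 genotypes overlapped for WRKY40, at 7.24 ± 1.29 CPM (SD, n = 4) in WT, 6.76 ± 0.751 CPM (SD, n = 3) in pxy and 7.38 ± 1.05 CPM (SD, n = 4) in 41-OX. Its log2 differences from WT roots were -0.09 (SE 0.18, edgeR adjusted p = 0.857) in pxy and 0.00 (SE 0.16, edgeR adjusted p = 0.997) in 41-OX. The end of a neighbouring gene on the other strand overlaps WRKY40.

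WRKY18 (AT4G31800, chromosome 4, 15382777 to 15385100, + strand, 5 exons), which pairs with WRKY40 in defence, was not called in any genotype contrast of either organ. It stood at 19.9, 26.8 and 21.6 CPM in WT shoots, 19.1, 21.3, 22.4 and 26.6 CPM in pxy shoots and 19.0, 18.4, 21.2 and 19.9 CPM in 41-OX shoots, and the 3 groups overlapped. Its log2 difference between 41-OX and pxy shoots was -0.19 (SE 0.12, edgeR adjusted p = 0.247), and its differences from WT shoots were -0.03 (SE 0.13) and -0.22 (SE 0.13). In roots its differences from WT were 0.33 (SE 0.19, edgeR adjusted p = 0.544) in pxy and -0.02 (SE 0.17, edgeR adjusted p = 0.961) in 41-OX.

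WRKY60 (AT2G25000, chromosome 2, 10629662 to 10631413, + strand, 4 exons), whose gene is a known target of WRKY18 and WRKY40, went the other way in 41-OX shoots. It stood at 10.9, 10.4 and 9.504 CPM in WT shoots, 9.45, 12.5, 11.3 and 11.2 CPM in pxy shoots and 23.8, 19.7, 18.04 and 17.1 CPM in 41-OX shoots. All 41-OX shoots were above all other shoots, while WT and pxy overlapped. The log2 differences from WT were 0.94 (SE 0.14) in 41-OX and 0.12 (SE 0.15) in pxy, and 41-OX was higher than pxy by 0.82 (SE 0.13, edgeR adjusted p = 5.91e-05). WT roots held WRKY60 at 13.4 ± 1.02 CPM (SD, n = 4), and its 41-OX shoot mean was 19.7 CPM. All 8 tested root markers were also higher in 41-OX than in pxy shoots, with a median log2 difference of 2.06, and their summed level is given above. In roots WRKY60 did not pass the test, at 0.18 (SE 0.14, edgeR adjusted p = 0.632) in pxy and 0.24 (SE 0.13, edgeR adjusted p = 0.338) in 41-OX.

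WRKY70 and WRKY54, close relatives in salicylate signalling, are given in turn. WRKY54 (AT2G40750, chromosome 2, 17000419 to 17002528, - strand, 3 exons) stood at 10.8, 13.5, 13.3 and 14.0 CPM in 41-OX roots, 5.45, 6.26, 8.34 and 8.26 CPM in WT roots and 5.48, 7.78 and 3.70 CPM in pxy roots. All 41-OX roots were above all other roots. WRKY54 rose in 41-OX against WT roots with a log2 change of 0.84 (SE 0.20, edgeR adjusted p = 0.0239) and against pxy roots with 1.16 (SE 0.23, edgeR adjusted p = 0.00592). Leaving out WT root replicate 1 or 2 or 41-OX root replicate 2 or 3 ended the call against WT (highest adjusted p = 0.0825). It held without 41-OX root replicate 4, the library with photosynthetic transcripts (adjusted p = 0.0426). With all 24 libraries as labelled the changes were 0.85 against WT and 1.45 against pxy, and neither was called (adjusted p = 0.672 and 0.117). In shoots WRKY54 had 0 to 7 counts per library, and stood at 0.281, 0.810, 0.311 and 0.131 CPM in 41-OX, 0.260, 0.497 and 0.292 CPM in WT and 0.326, 0.137, 0 and 0.774 CPM in pxy. Those 3 groups overlapped. The root marker list was higher in 41-OX shoots, and its part in these few WRKY54 counts was not tested.

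WRKY70 (AT3G56400, chromosome 3, 20908711 to 20910623, - strand, 3 exons), a node between salicylate and jasmonate responses, stood at 20.2, 34.1 and 10.5 CPM in WT shoots. It stood at 6.19, 7.82, 7.35 and 5.29 CPM in pxy shoots and 5.20, 4.05, 6.53 and 3.40 CPM in 41-OX shoots. The WT shoots varied most and still lay above all mutant shoots. The log2 differences from WT were -1.72 (SE 0.34) in pxy and -2.21 (SE 0.36) in 41-OX. For 41-OX against pxy the difference was -0.49 (SE 0.40), and the libraries of these mutants overlapped. In roots it stood at 12.1, 9.40, 11.2 and 11.9 CPM in 41-OX, 15.7, 15.4, 20.4 and 14.7 CPM in WT and 19.2, 21.6 and 11.4 CPM in pxy. The 41-OX roots were below all WT roots, but the difference did not pass, at -0.59 (SE 0.18, edgeR adjusted p = 0.0711); DESeq2 called it (adjusted p = 0.0343). Against pxy roots WRKY70 was called lower in 41-OX at -0.67 (SE 0.19, edgeR adjusted p = 0.0454). That call was lost without any 1 of 6 of the 7 libraries compared, the exception being pxy root replicate 4 (highest adjusted p = 0.132). It was also lost with all 24 libraries as labelled (adjusted p = 0.159) and in the fit of the 22 libraries (adjusted p = 0.110). With the replicate block its log2 change was -0.59 (adjusted p = 0.0979).

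WRKY53 and WRKY46, which act in senescence and salicylate-dependent resistance, were both low in these seedlings. WRKY53 (AT4G23810, chromosome 4, 12392370 to 12393982, - strand, 2 exons) stood at 5.07, 4.87 and 3.07 CPM in WT shoots, 1.63, 1.92, 2.31 and 1.29 CPM in pxy shoots and 1.83, 1.39, 1.56 and 1.83 CPM in 41-OX shoots. The WT shoots lay above both mutants, which overlapped each other. Log2 differences from WT shoots were -1.28 (SE 0.27) in pxy and -1.40 (SE 0.27) in 41-OX, and -0.12 (SE 0.30) for 41-OX against pxy. In roots the level was 4.67 ± 0.881 CPM (SD, n = 4) in WT, 3.71 ± 0.726 CPM (SD, n = 3) in pxy and 4.35 ± 0.567 CPM (SD, n = 4) in 41-OX, with no difference called. A gene on the other strand overlaps the 3′ end of WRKY53.

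WRKY46 (AT2G46400, chromosome 2, 19043411 to 19044955, - strand, 3 exons) stood at 6.25, 8.35 and 6.43 CPM in WT shoots, 4.40, 2.47, 2.86 and 4.51 CPM in pxy shoots and 2.11, 2.20, 1.24 and 1.57 CPM in 41-OX shoots. The 3 genotypes did not overlap in shoots. The log2 differences from WT were -0.99 (SE 0.23) in pxy and -1.95 (SE 0.26) in 41-OX, and 41-OX was lower than pxy, with -0.96 (SE 0.27). WRKY46 was the member called lower in 41-OX roots, where it had 4 to 10 counts per library against 14 to 23 in WT roots. Its levels there were 0.442, 0.442, 0.338 and 1.04 CPM in 41-OX, 1.16, 1.61, 1.22 and 2.00 CPM in WT and 1.27, 0.959 and 1.73 CPM in pxy, and all 41-OX roots lay below all WT roots. The log2 change was -1.44 (SE 0.38, edgeR adjusted p = 0.0360) against WT and -1.26 (SE 0.42, edgeR adjusted p = 0.0745) against pxy. Leaving out any 1 of WT root replicates 2, 3 and 4 or 41-OX root replicates 1, 2 and 3 ended the call against WT (highest adjusted p = 0.116). Without 41-OX root replicate 4, its highest 41-OX root, the change was -1.86 against WT (adjusted p = 0.00910) and -1.68 against pxy (adjusted p = 0.0218), both called. With all 24 libraries as labelled it was -1.42 and not called (adjusted p = 0.609).

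WRKY6 (AT1G62300, chromosome 1, 23016569 to 23019494, - strand, 6 exons), the repressor of PHO1, was with WRKY33 the most abundant member in roots. It stood at 64.2, 81.3, 69.4 and 67.0 CPM in WT roots, 73.3, 61.9 and 71.4 CPM in pxy roots and 64.9, 62.1, 58.7 and 51.2 CPM in 41-OX roots, and the groups overlapped. Neither mutant differed from WT roots by the test, at -0.03 (SE 0.11, edgeR adjusted p = 0.931) in pxy and -0.27 (SE 0.10, edgeR adjusted p = 0.156) in 41-OX. In shoots it stood at 10.8, 14.3 and 13.9 CPM in WT, 9.13, 10.7, 12.2 and 9.03 CPM in pxy and 15.9, 18.3, 16.5 and 14.0 CPM in 41-OX. All 41-OX shoots were above all pxy shoots, and WT overlapped both. WRKY6 was higher in 41-OX than in pxy shoots with a log2 difference of 0.66 (SE 0.14, edgeR adjusted p = 0.00118), and its differences from WT were 0.32 (SE 0.15) in 41-OX and -0.34 (SE 0.15) in pxy. The root marker list was higher in the same 41-OX shoots, and its part in the WRKY6 and WRKY60 differences was not tested.

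**Figure D4:**
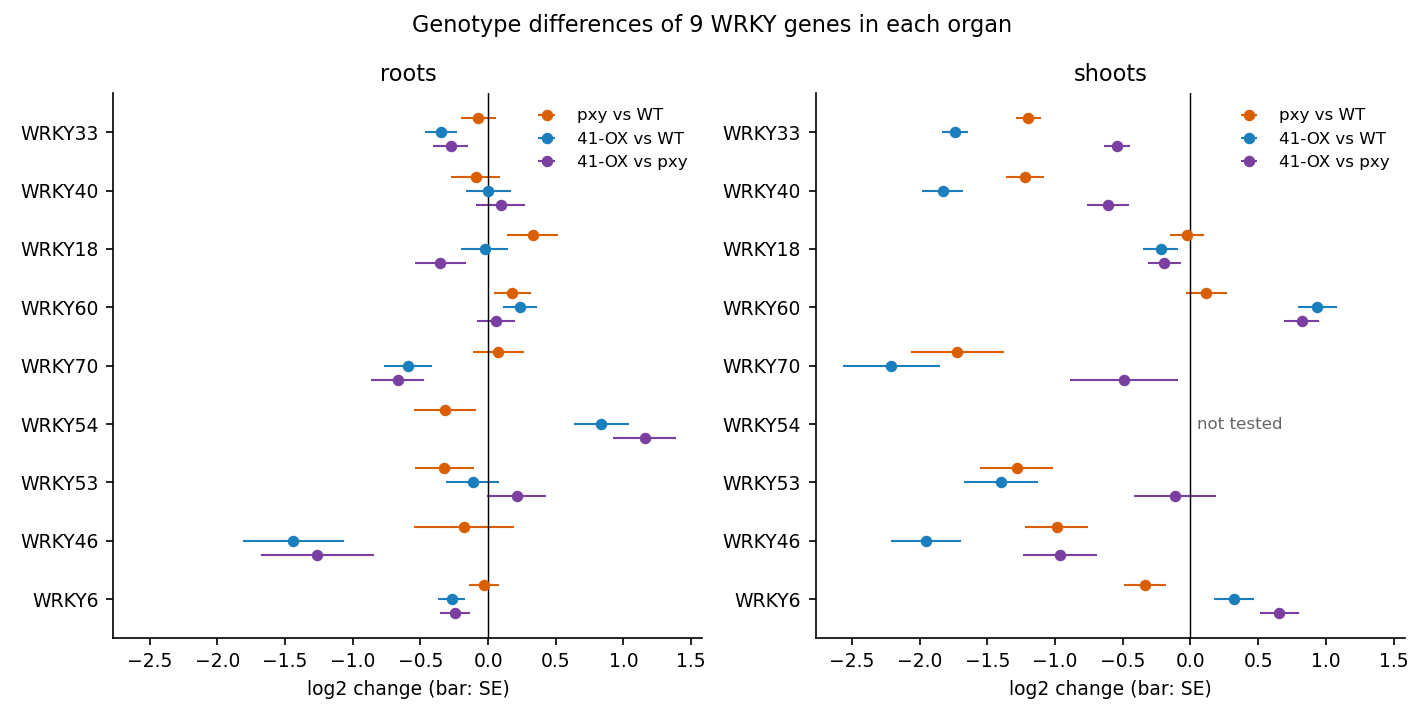
Log2 change of each member (x axis) for pxy against WT, 41-OX against WT and 41-OX against pxy, in roots (left) and shoots (right), with bars of 1 SE. In roots the pxy values lie between -0.32 and 0.33, and in 41-OX roots WRKY54 lies at 0.84 and WRKY46 at -1.44; WRKY54 was not tested in shoots.

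The medians place the members beside all genes. In pxy roots the median log2 change of the 9 members was -0.07 against -0.01 for all genes. No member there had an unadjusted p under 0.05 by edgeR, against 2045 of 20300 genes (10.1%), and DESeq2 called none. In 41-OX roots the median was -0.11 against 0.01, and 5 of 9 members had an unadjusted p under 0.05, beside 19.2% of all genes. Between the mutant shoots it was -0.34 against 0.00 for all genes.

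No gene of any pathway list was called in pxy against WT roots by edgeR. At an unadjusted p under 0.05 there were none of 8 for MAP kinases and VQ partners, 2 of 6 for WRKY33 targets, 1 of 10 for pattern-triggered immunity, none of 9 for salicylate and 1 of 16 for rapid wound, cold and touch genes. There were also none of 3 for abscisic acid and 1 of 4 for senescence. For the transporters linked to WRKY6, listed together with WRKY42, there were 2 of 5. The share of all genes was 10.1%. Among MAP kinases and VQ proteins known to act with WRKY33, none of 8 tested was called in any root contrast by edgeR, and none had an unadjusted p under 0.05 there. In 41-OX against pxy shoots 2 of 9 fell, beside 14.7% of all genes, the kinase genes MPK3 at -0.58 (SE 0.08, adjusted p = 2.18e-05) and MEKK1 at -0.46 (SE 0.11, adjusted p = 0.00193). Against WT shoots MPK3 differed by -0.36 (SE 0.09) in pxy and -0.94 (SE 0.09) in 41-OX, and the VQ gene SIB1 by -2.20 (SE 0.45) in 41-OX. Among known targets of WRKY33 in camalexin and ethylene synthesis, 1 of 6 tested fell in 41-OX against pxy shoots, beside 14.7% of all genes, the glucosinolate and camalexin enzyme gene CYP79B3 at -0.34 (SE 0.10, adjusted p = 0.0114). In 41-OX roots 1 of 6 fell against WT, beside 4.65% of all genes, the ethylene synthesis gene ACS6 at -0.73 (SE 0.13, adjusted p = 0.00347). In 41-OX against WT shoots 1 of 6 was called lower and 1 higher, beside 15.8% and 15.1% of all genes. ACS6 stood at -1.82 (SE 0.36) and the camalexin gene CYP71A13 at 1.15 (SE 0.38).

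Genes of pattern-triggered immunity went both ways. Beside 1.92% and 4.65% of all genes, 1 of 10 rose and 2 fell in 41-OX against WT roots. These were CYP81F2, an indole glucosinolate enzyme gene, at 0.94 (SE 0.24, adjusted p = 0.0320), NHL10 at -1.65 (SE 0.16, adjusted p = 4.42e-05) and the glucosinolate regulator MYB51 at -0.47 (SE 0.12, adjusted p = 0.0364). In 41-OX against pxy shoots 2 of 9 fell and 1 rose, beside 14.7% and 14.5% of all genes. MYB51 stood at -0.50 (SE 0.12, adjusted p = 0.00325) and NHL10 at 1.49 (SE 0.54, adjusted p = 0.0465). NHL10 was low there, at means of 2.41 CPM in 41-OX shoots and 0.846 CPM in pxy shoots. Its means were 19.6 CPM in WT roots and 1.15 CPM in WT shoots. CYP81F2, a gene of earlier results on these samples, differed from WT shoots by -1.45 (SE 0.21) in pxy and -1.92 (SE 0.22) in 41-OX.

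Beside 4.65% of all genes, 2 of 9 tested genes of the salicylate pathway fell in 41-OX against WT roots. These were ICS1, the main enzyme gene of salicylate synthesis, at -0.47 (SE 0.11, adjusted p = 0.0169), and the salicylate exporter gene EDS5 at -0.56 (SE 0.15, adjusted p = 0.0421). Between the mutants, beside 14.7% of all genes, 3 of 9 fell in 41-OX shoots. They were CBP60G, a regulator of ICS1, at -0.998 (SE 0.18, adjusted p = 0.000175), the receptor gene NPR3 at -0.50 (SE 0.11, adjusted p = 0.00150) and SAG101 at -0.26 (SE 0.09, adjusted p = 0.0271). The median log2 change of the 9 in that contrast was -0.21, and 6 of the 15 listed genes did not pass the filter on low counts.

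Rapid wound, cold and touch genes, many of which mechanical handling is known to induce, were called lower in part. Of 19, 9 fell in 41-OX against pxy shoots, 10 were not called and none rose, beside 14.7% of all genes called lower. Their log2 changes ran from -1.19 to 0.51, with a median of -0.48. They included TCH2 at -0.74 (SE 0.11), TCH4 at -0.81 (SE 0.13), ERF6 at -0.69 (SE 0.12) and CBF1 at -1.19 (SE 0.21). Their summed level was 1518 to 1668 CPM in WT shoots, 1179 to 1393 CPM in the pxy group and 731 to 1024 CPM in the 41-OX group, in the order of WRKY33 and WRKY40. Several of these genes were named in earlier results on these samples. The order and the count of 9 lower genes are therefore a description and not independent evidence. The shoot values are given without p for the same reason. In roots the sum was 206 to 249 CPM in 10 libraries and 367 CPM in 41-OX root replicate 4. There, beside 1.92% and 4.65% of all genes, 2 of 16 rose and 3 fell in 41-OX against WT. ERF6 stood at 0.76 (SE 0.18, adjusted p = 0.0194) and the zinc finger gene ZAT10 at -0.81 (SE 0.14, adjusted p = 0.00253). The part of handling in the levels of the WRKY genes was not tested.

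Smaller lists bear on single members. Of 3 abscisic acid genes tested in roots, 1 fell in 41-OX against WT, beside 4.65% of all genes. It was MYB2 at -1.85 (SE 0.49, adjusted p = 0.0396), a gene near the floor, at means of 0.264 CPM in 41-OX roots and 0.992 CPM in WT roots. Of 4 tested senescence genes 1 fell in 41-OX against WT roots, the NAC factor gene ORE1 at -1.01 (SE 0.16, adjusted p = 0.00192). In 41-OX against pxy shoots 4 of 5 fell, beside 14.7% of all genes, with NAP at -1.002 (SE 0.14, adjusted p = 9.22e-06). The list of transporters linked to WRKY6 also held WRKY42, which is counted among the other WRKY-named genes as well. Beside 1.92% of all genes, 2 of 5 genes of this list rose in 41-OX against WT roots. They were the phosphate transporter gene PHT1;1 at 0.66 (SE 0.08, adjusted p = 0.000287) and the boron exporter gene BOR1 at 0.66 (SE 0.09, adjusted p = 0.000586). PHO1 was not called in any genotype contrast. PHT1;1 also rose in 41-OX against pxy shoots, at 1.88 (SE 0.18, adjusted p = 2.21e-07), beside the root marker list.

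Most of the other WRKY-named genes that were called in shoots were higher in 41-OX. Of 58 in the table, 42 passed the low-count filter in shoots. In 41-OX against pxy shoots 19 were higher and 1 lower, beside 14.5% and 14.7% of all genes. Their median log2 difference was 0.50 against 0.00 for all genes. The largest were WRKY35 at 1.90 (SE 0.35, adjusted p = 0.000279), WRKY9 at 1.73 (SE 0.25, adjusted p = 2.23e-05) and WRKY72 at 1.35 (SE 0.24, adjusted p = 0.000219), and the lower one was WRKY22, an early gene of pattern responses, at -0.57 (SE 0.09, adjusted p = 5.89e-05). In 41-OX these 3 were all higher in roots than in shoots, with WRKY9 at 62.1 CPM in 41-OX roots and 5.49 CPM in 41-OX shoots. In pxy roots none of 46 tested was called by edgeR, and 13 had an unadjusted p under 0.05, beside 10.1% of all genes. In 41-OX roots 1 of 46 was higher and 9 were lower than in WT, beside 1.92% and 4.65% of all genes, with a median of -0.07. WRKY27 was the higher one at 0.46 (SE 0.13, adjusted p = 0.0440), and WRKY30 at -2.75 (SE 0.45, adjusted p = 0.00224), WRKY24 at -1.54 (SE 0.23, adjusted p = 0.000944) and WRKY43 at -1.36 (SE 0.31, adjusted p = 0.0160) were the lowest. Against pxy roots 2 were higher and 12 lower, beside 3.1% and 6.67% of all genes. WRKY45 at -1.90 (SE 0.19, adjusted p = 3.46e-05) was among the lower ones.

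Likeness between genes was measured as Pearson's r of log2 CPM, centred on the mean of each organ, over the 22 libraries; these libraries share genotype groups, so r describes the pattern and carries no test. Among the members WRKY33 was most like WRKY40 (r = 0.894) and WRKY70 (r = 0.864), and least like WRKY60 (r = -0.671). Lower levels of WRKY33, WRKY40 and WRKY70 in the mutant shoots chose the set. Their likeness therefore follows in part from that choice and is a description only. WRKY18 was near none of the others, with r between -0.226 and 0.448, and WRKY54 with r between -0.160 and 0.206. Of 19129 other genes, those most like WRKY33 were AT4G24380 at r = 0.927, NAC062 (AT3G49530) at r = 0.925, AR781 (AT2G26530) at r = 0.921, TIP (AT5G24590) at r = 0.901 and HSFB2A (AT5G62020) at r = 0.900. For WRKY70 they were ERF105 (AT5G51190) at r = 0.910, NUDT4 (AT1G18300) at r = 0.907, AT1G76360 at r = 0.880, NUDT21 (AT1G73540) at r = 0.877 and ARR9 (AT3G57040) at r = 0.874. For WRKY6 they were KMS1 (AT4G14950) at r = 0.856, LEP (AT5G13910) at r = 0.852, AT3G04440 at r = 0.834, AT1G47670 at r = 0.832 and AT4G24610 at r = 0.828.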

How the data were processed

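RNA from seedling roots and shoots was sequenced from libraries made by a high-throughput protocol, per the labels' protocols. The authors deposited raw read counts per locus, 1 column per library; the submitters' processing notes name CASAVA, TopHat2, HTSeq and the build TAIR10, with no version, and the overlap mode and strand setting are not given in the sources used here. HTSeq's summary lines were left out; 1.82% to 3.41% of reads had no feature, and 1.80% to 2.61% were ambiguous. Of 33602 loci 32835 had a row in TAIR10.1, which gave names, positions, exon lengths and sequences. The library labelled pxy root replicate 2, which earlier work on these data found to have a shoot profile, and WT shoot replicate 2, with 167131 counts, were left out.

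The test was edgeR's (4.0.16, under R 4.3.3) two-sided quasi-likelihood F-test with robust dispersions, after TMM scaling and filterByExpr on the groups. Genes were called at an adjusted p under 0.05 by Benjamini-Hochberg over all genes tested. Roots and shoots were fitted apart, and organ contrasts in 1 fit of 22 libraries. The SE is the log2 change divided by the root of F. The procedure was tested on simulated data. Depth limits the low members, and the p-values measure the spread between the labelled replicates.

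Alternatives were DESeq2 size factors, DESeq2 1.42.0 (Wald test), no low-count filter, all 24 libraries, a replicate block, a single fit of 22 libraries, the longest transcript as length, and each replicate left out in turn. The members and lists were chosen with earlier results of these data known. All 9 members were named, and of the other genes those called with the smallest adjusted p in each list (at most 4), the 3 WRKY genes with the largest rise and fall and the 3 highest per length, and the 5 most alike; some of these are left out of the text, and PHO1 is given for its known link to WRKY6.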

Additional observations from a re-analysis of the deposited data

Results flagged for a closer look

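WRKY46 in 41-OX root replicate 4 stood at 1.04 CPM, far from the other 3 libraries of its group at 0.338 to 0.442 CPM; this was 1 of 36 groups of 4 libraries examined, where chance gives about 1 in 20. The same library held the photosynthetic marker list at 19.1% of the WT shoot mean, and its part in the WRKY46 value was not tested.

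The 41-OX difference from WT was not the same in roots as in shoots for 6 members. On the log2 scale, root minus shoot, it was 1.86 (SE 0.24) for WRKY40, 1.65 (SE 0.40) for WRKY70, 1.42 (SE 0.16) for WRKY33 and 1.32 (SE 0.32) for WRKY53, all lower in shoots than the root difference. It was -0.67 (SE 0.19) for WRKY60 and -0.56 (SE 0.17) for WRKY6, where the shoot difference was the higher one. The WRKY6 value did not pass without WT root replicate 2, WT shoot replicate 1, 41-OX root replicate 4 or 41-OX shoot replicate 2. For pxy the difference was 1.13 (SE 0.17) for WRKY33, and WRKY40 and WRKY70 passed as well without WT shoot replicate 4. These 7 values passed the test in the fit of 22 libraries, but their shoot part was known when the members were chosen, so no p is given.

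The library labelled pxy root replicate 2 was used only in the fits with all 24 libraries as labelled. It held WRKY40 at 27.4 CPM, WRKY18 at 24.9 CPM and WRKY46 at 4.89 CPM without TMM scaling. Each value was more than 2 times that of the highest WT root on this scale. WRKY40 and WRKY46 lay between the lowest and the highest shoot library, and WRKY18 lay above the highest, at 24.4 CPM. By group, WRKY40 lay within the WT shoots (25.7 to 39.6 CPM) and above the pxy shoots (12.6 to 14.5 CPM). WRKY33, at 90.7 CPM, lay within the WT shoots (77.4 to 90.8 CPM) and above the pxy shoots (29.9 to 40.0 CPM). The same held for WRKY70 and WRKY53. WRKY46 lay between these groups, WRKY60 within both, and WRKY6, WRKY18 and WRKY54 above both. The genotype of this library was not tested.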

How the results depend on the processing

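Counts of members called were within 1.5 times of the values above under DESeq2 size factors and without the low-count filter in all 11 comparisons, and under the other alternatives except as follows. With all 24 libraries as labelled, 0 members were called in 41-OX against WT roots (2 above), 0 in 41-OX against pxy roots (2), 5 in pxy roots against pxy shoots (9), 0 for the pxy difference between organs (1) and 3 for the 41-OX difference between organs (6). With the replicate block 1 was called in 41-OX against pxy roots (2), and no other count of members changed by over 1.5 times under the block. Over 9 contrasts, the deviations of same-numbered libraries from their group means had r from -0.486 to 0.348. Only in 41-OX against pxy shoots was every such pair positive, at 0.00593 to 0.139. Whether same-numbered libraries share a batch cannot be told from so few pairs. DESeq2 called 3 for the pxy difference between organs (1). Leaving out 1 replicate at a time, the counts ranged from 0 to 2 in 41-OX against WT roots, 1 to 2 in 41-OX against pxy roots, 3 to 5 in pxy against WT shoots and 1 to 3 for the pxy difference between organs. They stayed at 0 in pxy against WT roots, 6 in 41-OX against WT shoots, 5 in 41-OX against pxy shoots and 7 in WT organs. Of 1383 values of single members under an alternative, 60 lost and 8 gained a call, none that was called changed sign, and 37 uncalled values did; the causes were not tested.

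Counts of all genes moved more. In pxy against WT roots they were 8, against 89 by DESeq2, 1 with all 24 libraries, 3 with the replicate block, 14 in the fit of 22 libraries and 3 to 10 without 1 replicate. With all 24 libraries they were 137 in 41-OX against WT roots (1332), 230 in 41-OX against pxy roots (1983) and 402 for the 41-OX difference between organs (3418). In 41-OX against pxy roots they were 1136 with the replicate block and 3276 in the fit of 22 libraries, and 1247 to 2565 without 1 replicate, lowest without 41-OX root replicate 2. In pxy against WT shoots they were 343, 143 in the fit of 22 libraries and 117 to 397 without 1 replicate; without 1 replicate they were 859 to 1277 in 41-OX against WT roots. For the pxy difference between organs they were 2, 47 by DESeq2, 1 with all 24 libraries and up to 17 without 1 replicate. Per length of the longest transcript, WRKY18 stood at 5.43 in WT roots, 5.42 in 41-OX roots, 13.1 in WT shoots, 12.8 in pxy shoots and 11.3 in 41-OX shoots, in CPM per kilobase. Depth limits WRKY46 in roots and WRKY54 in shoots, where few reads were counted.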
